A study of Homo sapiens with 27 samples.

Results

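Estrogen receptor target genes are described here in T47D cells that express truncated forms of the transcription factor GATA3. The group was chosen by gene name and holds 10 of the 26485 genes in the count file, namely TFF1, TFF3, GREB1, CCND1, MYB, PDZK1, CA12, RET, CXCL12 and PRSS23. All 10 were found in the file, and all 10 passed the filter on low counts. T47D is an established luminal breast cancer line that carries estrogen receptor alpha. The study placed the X308 splice site deletion (Splice del), the C321 frameshift (C321fs) or the A333 frameshift (A333fs) of GATA3 into these cells with pHAGE lentiviral vectors, as proteins fused to a Ty1 tag. Control cells received the empty vector, all lines were selected with puromycin, and each line was sequenced as 3 RNA-seq libraries. Each mutant is represented by 1 selected cell pool, the endogenous wild-type GATA3 was still expressed, and the labels name neither an estrogen treatment nor an estrogen withdrawal. The paper's methods give high-glucose DMEM with FBS as the growth medium, while the labels name another medium. The RNA-seq counts do not separate a transgene transcript from the endogenous one. Nothing states that the 3 libraries of a line came from separate transductions, so the p-values measure the spread between libraries of 1 pool.

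Estrogen receptor alpha is a nuclear receptor that binds DNA when it holds estradiol and recruits coactivators to the genes it induces. In luminal breast cells much of its binding lies at distal enhancers that FOXA1 opens and that GATA3 shares, and many of the genes it induces are used as readouts of receptor activity. The 10 members include secreted trefoil peptides, growth and cell cycle regulators, membrane and scaffold proteins, and secreted proteins that act outside the cell. The question put to the counts was whether these genes moved together in the 3 mutant lines or separately.

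The 12 libraries held 27872208 to 36788024 counted fragments. All 10 luminal markers were measured in every library, including keratins 8, 18 and 19, EPCAM, ESR1 and PGR. Their summed level was 18560 to 21870 counts per 1000000 counted fragments (CPM) in control and 12310 to 15240 CPM in the mutant lines. KRT8, KRT19 and KRT18 had the highest control means of the list, at 7517.9, 5564.5 and 2614.6 CPM. The endothelial markers PECAM1, VWF and CDH5, the fibroblast markers COL1A2, PDGFRB and FAP, the leukocyte markers PTPRC and CD3E, and the basal keratin KRT5 had at most 3 counts in every library. The whole basal list of 6 genes summed to 13.1 to 15.0 CPM in control and 12.6 to 23.0 CPM in the mutant lines, the 6 fibroblast genes to 53.2 to 65.0 CPM and 29.7 to 50.7 CPM, and the 4 leukocyte genes to 2.44 to 2.99 CPM and 2.99 to 5.22 CPM. The control libraries also differed from the mutant libraries in base composition. Per 10 points of gene GC content, log2 CPM was higher by 0.15 to 0.23 in the control libraries, relative to the mean of all libraries, and changed by -0.17 to 0.06 in the mutant libraries. The part of GC content and of marker levels in the results was not tested. Where removal of a GC and length trend ended a call or turned a direction, that is said beside the result.

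Promoters of PRSS23 and CXCL12 are shown first, because PRSS23 had the largest fold changes of the group and CXCL12 was the only other member above control in every mutant library. The 250 bases before each RefSeq start (GRCh38.p14) were searched for letters of the estrogen response element, GATA and FOXA motifs on both strands. RefSeq entries matched 6 of the 10 members with 9 windows, and TFF1, TFF3, GREB1 and CCND1 had no entry. PRSS23 has 2 listed starts on the plus strand, with windows at chr11:86790821-86791070 and chr11:86800292-86800541. CXCL12 has 1 on the minus strand, with its window at chr10:44385098-44385347. Capitals mark the 5-letter arm GGTCA of the element or its complement TGACC, read 5′ to 3′ on the gene's strand.
PRSS23 upstream start: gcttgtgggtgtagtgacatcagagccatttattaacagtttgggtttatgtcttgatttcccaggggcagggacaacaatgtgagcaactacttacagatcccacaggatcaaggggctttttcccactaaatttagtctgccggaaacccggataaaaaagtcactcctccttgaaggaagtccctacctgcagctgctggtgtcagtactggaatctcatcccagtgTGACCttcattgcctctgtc
PRSS23 downstream start: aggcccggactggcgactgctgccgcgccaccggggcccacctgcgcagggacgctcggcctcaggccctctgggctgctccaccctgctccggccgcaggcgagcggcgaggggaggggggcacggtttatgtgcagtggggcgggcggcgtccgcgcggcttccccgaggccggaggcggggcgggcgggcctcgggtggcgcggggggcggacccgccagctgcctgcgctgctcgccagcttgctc
CXCL12: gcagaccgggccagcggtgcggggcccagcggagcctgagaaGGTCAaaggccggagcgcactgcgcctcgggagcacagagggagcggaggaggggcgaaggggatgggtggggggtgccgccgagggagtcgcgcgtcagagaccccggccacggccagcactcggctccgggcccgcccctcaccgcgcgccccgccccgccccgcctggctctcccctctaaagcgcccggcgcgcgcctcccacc
The upstream PRSS23 window holds 1 such arm, which begins 20 bases before the start, and the CXCL12 window holds 1 that begins 208 bases before its start. The downstream PRSS23 window, with a GC content of 79.6% against 47.6% in the upstream one, holds none. Among the other members, the window of CA12 holds 1 arm, both overlapping windows of PDZK1 hold the same 1 arm, and those of MYB and RET hold none. An arm occurs in 32.7% of all 35116 windows of this length, so a match is common and describes letters only. The full element, GGTCA and TGACC with 3 bases between them, was in none of the 9 windows and in 0.0399% of all windows. The GATA words AGATAA and TGATAA were in none of the 9 windows, against 14.6% of all windows, and the FOXA words TGTTTAC and TATTTAC were in the MYB window alone, against 5.27%. The shorter word AGAT was in the windows of MYB, PDZK1 and CA12 and in the upstream window of PRSS23, and in 64.15% of all windows. The counts are summed per gene and do not say which start was used.

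The members did not move as a block. PRSS23 rose in all 3 mutant lines, TFF1 and TFF3 rose in Splice del and A333fs but were not called in C321fs, CXCL12 rose past the fold limit in A333fs, and RET fell in A333fs. A gene was called when edgeR's quasi-likelihood test gave a Benjamini-Hochberg adjusted p below 0.01 over all 14789 tested genes and the fitted fold change exceeded 1.5. Of the 10 members, 3 were called higher and 0 lower in Splice del, where 6.21% of all tested genes were called higher and 4.53% lower. In C321fs 1 member was called higher and 0 lower, against 4.63% and 2.26% of all tested genes. In A333fs 4 were called higher and 1 lower, against 5.46% and 6.81%. The median log2 fold change of the 10 members was 0.34 with Splice del, -0.01 with C321fs and 0.17 with A333fs. That of all tested genes was 0.03, 0.02 and 0.01. Taking out the GC and length trend changed the member medians to 0.23, 0.17 and 0.04, in the same order of lines. The C321fs median thus turned positive and stood above that of A333fs. Medians of all tested genes were then -0.002, -0.006 and -0.04. The 3 comparisons use the same control libraries and are not independent of each other.

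A further count compared scaled CPM library by library, without a fitted model, and so depends on how the libraries were scaled. By it, 7 members were higher in all 3 Splice del libraries than in any control library and 1 was lower. Of all tested genes, 31.7% and 31.3% were so placed. The numbers were 4 and 1 with C321fs, against 27.3% and 26.7%, and 6 and 3 with A333fs, against 31.2% and 34.3%. Across the 4 lines, 8 members differed at an adjusted p below 0.01 with no fold limit, as did 56.2% of all tested genes. The exceptions were GREB1 and CA12, with adjusted p = 0.0187 and 0.0135. Against control, 6, 4 and 7 members passed the adjusted p limit alone in Splice del, C321fs and A333fs, as did 41.1%, 36.8% and 47.4% of all tested genes. Between mutant lines, 6 members passed it for Splice del against C321fs, 9 for A333fs against C321fs and 5 for A333fs against Splice del, where 6.32%, 15.7% and 11.9% of all tested genes did. PRSS23 ranked 7 among all tested genes by this test of any difference among lines.

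**Figure D1:**
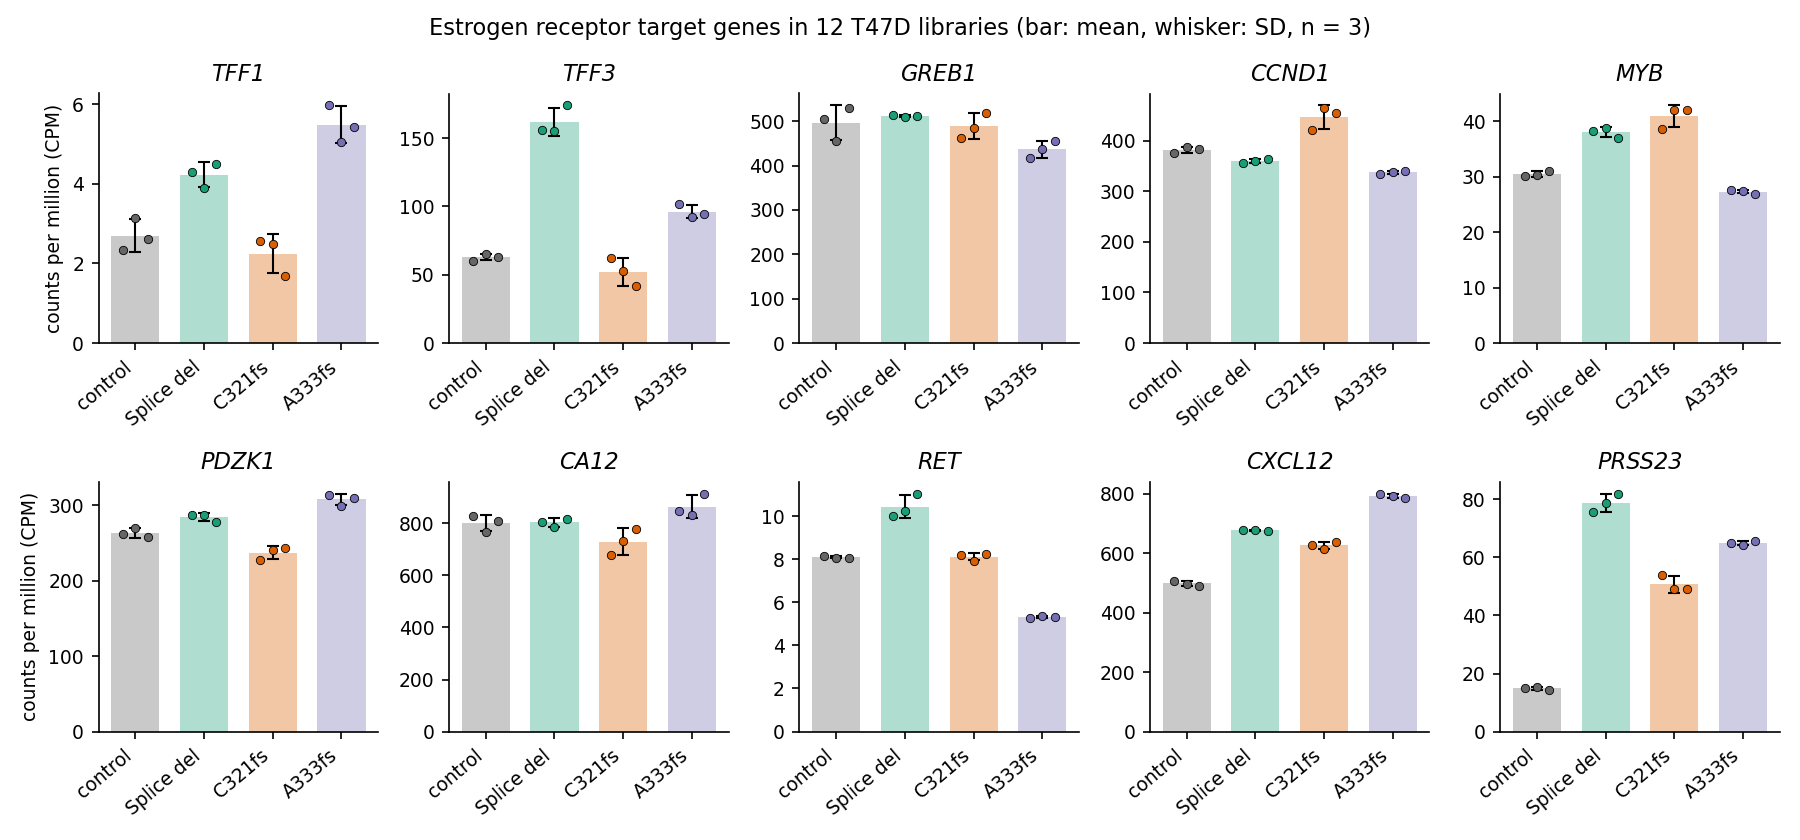
Level of each member in CPM (vertical axis, each panel from 0) in control, Splice del, C321fs and A333fs cells, with 1 point per library, a bar at the mean and a whisker of 1 SD (n = 3). The PRSS23 control libraries lie between 14.2 and 15.4 CPM, under every mutant library, while the GREB1 and CA12 points of most lines overlap.

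Per kilobase of exon, the control cells held most RNA of CA12, at 190 ± 7.46 CPM per kilobase (SD, n = 3), followed by PDZK1 at 114 ± 2.74, CXCL12 at 94.2 ± 1.74, CCND1 at 89.0 ± 1.42, TFF3 at 59.7 ± 2.38, GREB1 at 48.1 ± 3.77, MYB at 8.29 ± 0.124 and TFF1 at 5.48 ± 0.831. PRSS23 at 1.30 ± 0.0533 and RET at 1.27 ± 0.00990 CPM per kilobase closed the order. Their means differed by less than the SD of PRSS23 but by more than that of RET. In Splice del cells TFF3 was second after CA12, at 153 ± 10.0 CPM per kilobase. The PRSS23 length takes in every annotated exon, so its level per kilobase is low wherever short transcripts prevail.

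TFF1 and TFF3 encode small secreted trefoil peptides that protect mucosal surfaces, and TFF1 is among the oldest known estrogen-induced genes of breast cancer cells. Both lie on the minus strand of chromosome 21, at chr21:42362282-42366535 and chr21:42311667-42315596 (hg38). The level of TFF1 was 2.34, 3.14 and 2.60 CPM in the control libraries, 4.31, 3.90 and 4.49 CPM with Splice del, 2.56, 2.50 and 1.68 CPM with C321fs, and 5.97, 5.04 and 5.43 CPM with A333fs. The Splice del and A333fs libraries were all above the control libraries, and the C321fs libraries overlapped them. TFF1 was low in these cells, with 52 to 185 counts per library. Its fold change on the log2 scale was 0.65 ± 0.151 (SE) with Splice del (adjusted p = 0.00197) and 1.02 ± 0.147 with A333fs (adjusted p = 2.72e-05). In C321fs it was -0.27, with a 95% interval of -0.62 to 0.09 and an adjusted p of 0.196. The Splice del call did not hold without control replicate 1, where the change was 0.55 and the adjusted p 0.0135.

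TFF3 was called in the same lines as TFF1. Its level was 60.3, 65.3 and 63.3 CPM in control, 156, 155 and 174 CPM with Splice del, 61.9, 52.6 and 41.5 CPM with C321fs, and 102, 92.0 and 94.7 CPM with A333fs. The Splice del libraries stood above all others, the A333fs libraries came next, and the C321fs libraries reached from within the control range to below it. On the log2 scale TFF3 rose by 1.36 ± 0.102 (SE) with Splice del (adjusted p = 7.27e-08) and by 0.61 ± 0.101 with A333fs (adjusted p = 9.83e-05), and its value in C321fs was -0.28 ± 0.103 (adjusted p = 0.0341). The A333fs call sat near the fold limit and was lost without control replicate 1, at 0.58, or without A333fs replicate 1, at 0.57. Genes of the GC content of TFF1 and TFF3 had medians below 0 in all 3 mutant lines. For TFF3, whose exons are 54.6% GC, the median of the 1000 genes nearest in GC was -0.16 with Splice del, -0.17 with C321fs and -0.24 with A333fs.

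GREB1, a chromatin-bound cofactor of the estrogen receptor and one of its most direct targets, was abundant and was called in no line. Its level ranged from 455 to 531 CPM in control, 511 to 515 CPM with Splice del, 462 to 519 CPM with C321fs and 417 to 456 CPM with A333fs. The Splice del and C321fs ranges lay within or across the control range, and the lowest control library lay inside the A333fs range. The fold change on the log2 scale was 0.05 (95% interval -0.09 to 0.18) with Splice del, -0.02 (-0.16 to 0.11) with C321fs and -0.18 (-0.32 to -0.05) with A333fs, with adjusted p = 0.56, 0.773 and 0.0175. These intervals leave out changes of 1.5-fold in either direction. The C321fs value was 0.16 with the GC and length trend removed.

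CCND1 encodes cyclin D1, the partner of CDK4 and CDK6 that drives entry into the cell cycle. Its level was 375, 387 and 383 CPM in control, 357, 359 and 363 CPM with Splice del, 421, 464 and 456 CPM with C321fs, and 333.4, 338 and 340 CPM with A333fs. Every C321fs library was above the control libraries, and every Splice del and A333fs library was below them. None of the differences from control reached the fold limit, at -0.09 ± 0.0483 (SE) with Splice del, 0.23 ± 0.0483 with C321fs and -0.18 ± 0.0484 with A333fs on the log2 scale, with adjusted p = 0.143, 0.00123 and 0.00465. The Splice del value of CCND1 turned to 0.0999 when libraries were scaled by size alone.

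MYB, a transcription factor of proliferating cells whose transcript elongation is under estrogen control in breast cancer lines, was also highest in C321fs and lowest in A333fs. Its level was 30.2, 30.2 and 31.0 CPM in control, 38.3, 38.8 and 37.0 CPM with Splice del, 38.7, 42.1 and 42.0 CPM with C321fs, and 27.6, 27.4 and 26.9 CPM with A333fs. The Splice del and C321fs libraries were all above control, and the A333fs libraries were all below it. The log2 fold changes were 0.32 ± 0.0553 (SE) with Splice del (adjusted p = 1.75e-04) and 0.42 ± 0.0553 with C321fs (adjusted p = 2.63e-05), both under the fold limit, and -0.16 ± 0.0562 with A333fs (adjusted p = 0.0234). Set against each other, A333fs was lower than C321fs by 1.497-fold, with an adjusted p of 1.2e-06, which fell just short of a call.

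PDZK1, a scaffold with PDZ domains that holds transporters and receptors at the membrane, was called in no line. It ranged from 258 to 270 CPM in control, 278 to 287 CPM with Splice del, 227 to 243 CPM with C321fs and 299 to 313 CPM with A333fs. The 4 ranges did not overlap, yet the log2 fold changes of 0.11, -0.15 and 0.22 were all under the fold limit, with adjusted p = 0.0629, 0.0154 and 7.8e-04. After removal of the GC and length trend, PDZK1 turned to the other side of control in Splice del, at -0.05, and in A333fs, at -0.05. CA12 encodes carbonic anhydrase XII, a membrane enzyme that regulates acidity at the cell surface and whose gene has an estrogen-responsive distal enhancer. It ranged from 766 to 827 CPM in control, 788 to 819 CPM with Splice del, 677 to 779 CPM with C321fs and 831 to 913 CPM with A333fs. Its log2 fold changes were 0.01 (95% interval -0.12 to 0.13), -0.13 (-0.26 to -0.01) and 0.11 (-0.02 to 0.24), none of which was called. The C321fs values of GREB1, PDZK1 and CA12 turned positive when libraries were scaled by size alone.

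RET, a receptor tyrosine kinase for ligands of the GDNF family whose transcription estrogen raises in luminal cells, was the only member called lower in a mutant line. Its level was 8.18, 8.08 and 8.06 CPM in control, 10.0, 10.3 and 11.04 CPM with Splice del, 8.22, 7.94 and 8.23 CPM with C321fs, and 5.29, 5.36 and 5.31 CPM with A333fs. The Splice del libraries stood above control, the C321fs libraries overlapped control, and the A333fs libraries stood below all others. RET fell by 0.61 on the log2 scale in A333fs (SE 0.0804, adjusted p = 1.28e-05), with 164 to 181 counts per library against 232 to 252 in control. Its log2 fold change was 0.36 ± 0.0747 with Splice del (adjusted p = 7.56e-04) and 0.00 ± 0.0769 with C321fs (adjusted p = 0.962). The A333fs value lay at the edge of the fold limit, and it was -0.48 with the GC and length trend removed and -0.58 without A333fs replicate 2, where it was not called. For the 1000 genes nearest to RET in GC content, 53.5%, the A333fs median was -0.19.

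CXCL12, the chemokine ligand of CXCR4 and ACKR3, was higher than control in every mutant library. Its level was 508, 497 and 490 CPM in control, 677, 679 and 675 CPM with Splice del, 627, 613 and 639 CPM with C321fs, and 799, 792 and 785 CPM with A333fs. The libraries of the 4 lines did not overlap. The log2 fold change was 0.44 ± 0.0447 (SE) with Splice del, 0.33 ± 0.0446 with C321fs and 0.67 ± 0.0448 with A333fs, with adjusted p = 1.42e-06, 3.47e-05 and 1.62e-08. The A333fs value alone passed the fold limit, and it was not called at 0.51 with the GC and length trend removed. The difference of A333fs from Splice del was 0.23 ± 0.0445 (adjusted p = 0.00202), and that from C321fs was 0.34 ± 0.0446 (adjusted p = 3.82e-05), both under the fold limit. Splice del and C321fs differed by 0.11 (adjusted p = 0.117).

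PRSS23, a secreted serine protease, had the largest change of the group in each mutant line. The gene spans chr11:86791059-86952903 on the plus strand (hg38). Its level was 15.1, 15.4 and 14.2 CPM in control, 75.7, 78.9 and 81.9 CPM with Splice del, 54.0, 49.0 and 49.1 CPM with C321fs, and 64.9, 64.2 and 65.6 CPM with A333fs. The lowest mutant library was far above the highest control library, and the 3 mutant lines did not overlap each other. The increase was 5.28-fold in Splice del, 3.40-fold in C321fs and 4.35-fold in A333fs, or 2.40 ± 0.0624 (SE), 1.76 ± 0.0624 and 2.12 ± 0.0623 on the log2 scale, with adjusted p = 2.41e-13, 2.82e-11 and 1.25e-12. After removal of the GC and length trend, the log2 values were 2.30, 1.76 and 1.96. Of the PRSS23 exon bases, 1399, or 12.2%, also lie in exons of FZD4 on the other strand, where fragments were not assigned to either gene when they touched both. FZD4, a Wnt receptor, had log2 fold changes of 0.46, 0.30 and 0.21, far smaller than those of PRSS23. The other 9 members share no exon base with another gene of the file.

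**Figure D2:**
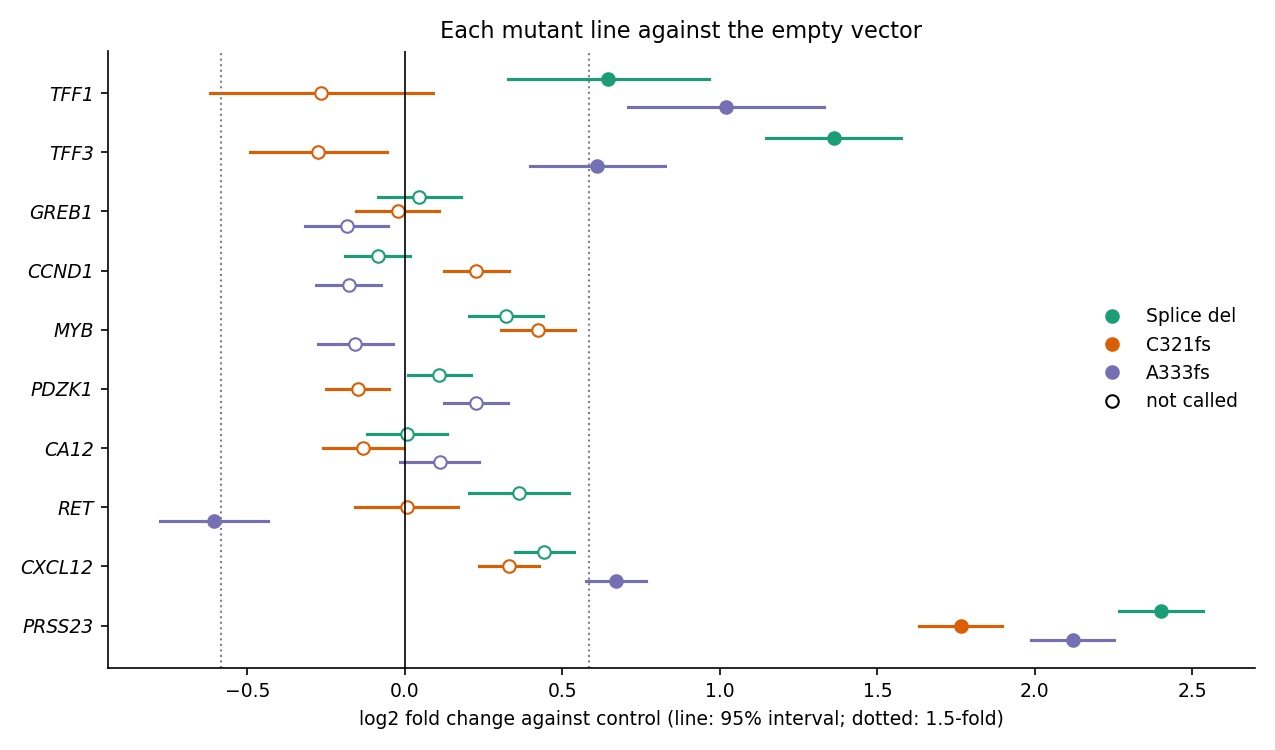
Log2 fold change of each member (rows) in Splice del, C321fs and A333fs against control (horizontal axis), with 95% intervals, filled points where the gene was called and dotted lines at a fold change of 1.5. PRSS23 is filled in all 3 lines, at 2.40, 1.76 and 2.12, and the TFF1 and TFF3 points of C321fs lie left of 0 while those of the other lines lie right of it.

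The mutant lines were then set against each other, since a call in one line and not in another does not by itself show a difference between them. Splice del was higher than C321fs for TFF1, TFF3 and PRSS23, so that 3 members were called higher and 0 lower where 1.76% and 0.879% of all tested genes were. The log2 differences were 0.91 ± 0.154 (SE) for TFF1 (adjusted p = 8.07e-04), 1.64 ± 0.103 for TFF3 (adjusted p = 1.74e-08) and 0.64 ± 0.0569 for PRSS23 (adjusted p = 1.2e-06). The PRSS23 difference was 0.54 with the GC and length trend removed and was then not called.

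A333fs was higher than C321fs for TFF1, by 1.28 ± 0.15 on the log2 scale (adjusted p = 1.1e-05), and for TFF3, by 0.89 ± 0.102 (adjusted p = 9.08e-06). RET was lower in A333fs than in C321fs, at -0.61 ± 0.0801 (adjusted p = 3.63e-05), a call that was lost without A333fs replicate 2. These were 2 members higher and 1 lower, against 2.47% and 3.08% of all tested genes. A333fs was lower than Splice del for TFF3, at -0.75 ± 0.0995 (adjusted p = 8.76e-05), and for RET, at -0.97 ± 0.0777 (adjusted p = 6.31e-07). No member was called higher in A333fs than in Splice del and 2 were called lower, against 1.03% and 1.97% of all tested genes. For TFF1, A333fs and Splice del differed by 0.37 (95% interval 0.09 to 0.66, adjusted p = 0.0576), which was not a call.

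**Figure D3:**
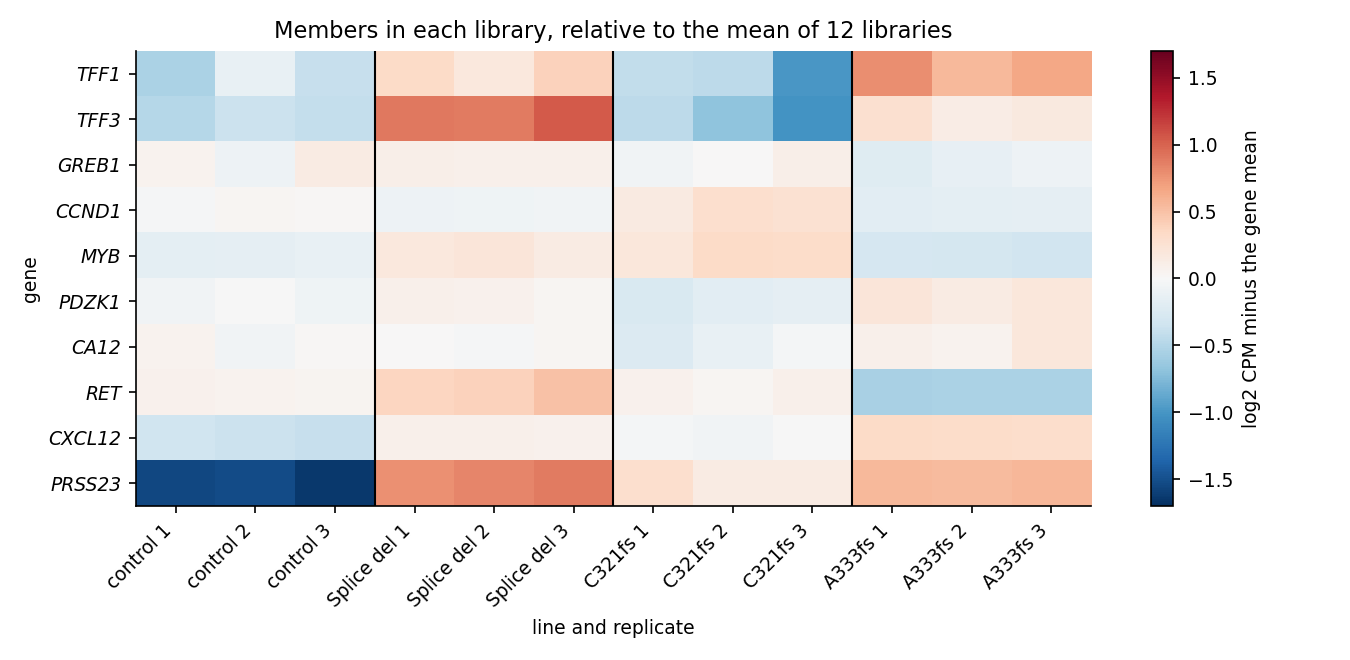
Log2 CPM of each member (rows) in each of the 12 libraries (columns, 3 per line), minus the mean of that gene over the 12 libraries, in red above and blue below the mean. PRSS23 is 1.52 to 1.63 below its mean in the control libraries, TFF1 and TFF3 are below their means in control and C321fs, and RET is 0.53 to 0.55 below its mean in A333fs.

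The receptor gene, its target PGR and its partners FOXA1 and GATA3 were called in no mutant line. ESR1, which encodes estrogen receptor alpha, was at 221 ± 12.3 CPM (SD, n = 3) in control, 259 ± 8.64 CPM with Splice del, 219 ± 15.9 CPM with C321fs and 239 ± 9.09 CPM with A333fs. Its log2 fold changes were 0.23 (adjusted p = 0.00472), -0.01 (adjusted p = 0.874) and 0.11 (adjusted p = 0.123), under the fold limit in each line. PGR, the progesterone receptor gene and a classical estrogen target, was at 1107 ± 92.4 CPM in control and had log2 fold changes of -0.02, -0.24 and -0.07, none called. FOXA1, the pioneer factor of luminal enhancers, had values of -0.09, -0.30 and -0.38, and GATA3 itself, endogenous and introduced transcripts together, -0.36, -0.17 and -0.33, again none called. In bulk RNA, a lower level cannot be told apart from fewer cells that express the gene.

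Of 17 genes for the receptors, pioneer factors and coregulators, 0 were called in Splice del, 3 were called lower in C321fs, and 1 was called higher and 2 lower in A333fs. The list medians were -0.05, -0.17 and -0.21 on the log2 scale. CITED1, a coactivator of the estrogen receptor, was lower in C321fs and A333fs, at -0.94 (adjusted p = 5.94e-06) and -1.02 (adjusted p = 1.1e-06), and stood at 0.00 in Splice del. Also called, and named after their values were seen, were CREBBP, lower in C321fs at -0.61, and ESR2, higher in A333fs at 0.73 from a control level of 3.64 CPM. With the GC and length trend removed, the calls were 0 in Splice del, 1 lower in C321fs, and 1 higher and 1 lower in A333fs, and CREBBP, at -0.40, was not called. Of the 14789 tested genes, 781 were then called higher and 243 lower in Splice del. The numbers were 520 and 155 in C321fs, and 581 and 222 in A333fs.

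Of 36 further genes known to be induced by estrogen in breast cancer cells, 8 were called higher and 7 lower in Splice del, 6 higher and 5 lower in C321fs, and 6 higher and 10 lower in A333fs. Of all tested genes, 6.21% were called higher and 4.53% lower in Splice del, and 4.63% and 2.26% in C321fs. In A333fs the shares were 5.46% and 6.81%. The median log2 fold changes of the 36 genes were -0.05, -0.18 and -0.23. The wider list held calls in both directions in every line. Against control, the 10 members did so in A333fs alone, where RET was the only lower call. That RET call ended with the GC and length trend removed and with upper-quartile or library-size scaling. With the GC and length trend removed the counts of the 36 genes were 7 higher and 4 lower, 4 and 2, and 3 and 5. Of the 14789 tested genes, 781 were then called higher and 243 lower, 520 and 155, and 581 and 222. The list shares KRT19 and PGR with the luminal markers, and ESR1, GATA3 and FOXA1 stand in both the receptor list and the luminal markers.

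The genes of this list called in the same direction in all 3 mutant lines are named here. The share of all tested genes so called was not counted, and the 3 comparisons use the same control libraries. MYC, the proliferation factor, was lower at -1.02, -0.66 and -0.92 on the log2 scale in Splice del, C321fs and A333fs (adjusted p = 2.13e-09, 6.47e-07 and 4.6e-09). HSPB8, a small heat shock protein gene, was lower at -1.52, -0.89 and -0.92, and RARA, the retinoic acid receptor alpha gene, at -0.72, -0.66 and -0.99. RERG, which encodes a growth-inhibiting small GTPase, was higher at 0.74, 0.67 and 0.63, and WISP2, a secreted matricellular protein gene named after its values were seen, at 0.87, 0.82 and 1.01. RARA and RERG were called in no line, and MYC was not called in C321fs, with the GC and length trend removed.

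BCL2, the anti-apoptotic gene, had the same order of lines by mean level as TFF1. It was at 2.11 ± 0.342 CPM (SD, n = 3) in control, 6.62 ± 0.907 CPM with Splice del, 1.84 ± 0.107 CPM with C321fs and 7.22 ± 0.943 CPM with A333fs. Its log2 fold changes were 1.66 (adjusted p = 4.6e-07), -0.19 (adjusted p = 0.399) and 1.77 (adjusted p = 1.79e-07). AGR2, a disulfide isomerase of secretory cells, was higher in Splice del and A333fs, at 0.99 and 0.87, and its paralog AGR3 in the same lines, at 0.68 and 0.62. In C321fs they stood at 0.52 and 0.51, which were not calls. RAB31, a trafficking GTPase gene, was higher in Splice del and C321fs, at 1.00 and 0.84, and stood at 0.48 in A333fs. FKBP4, a cochaperone of steroid receptors, MYBL2, KRT19 and SUSD3 were lower in Splice del and A333fs, at -0.59 to -0.67, and stood between -0.41 and -0.58 with C321fs. With the GC and length trend removed, FKBP4 alone of these last genes was called, and AGR3 was not called in A333fs, at 0.41.

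**Figure D4:**
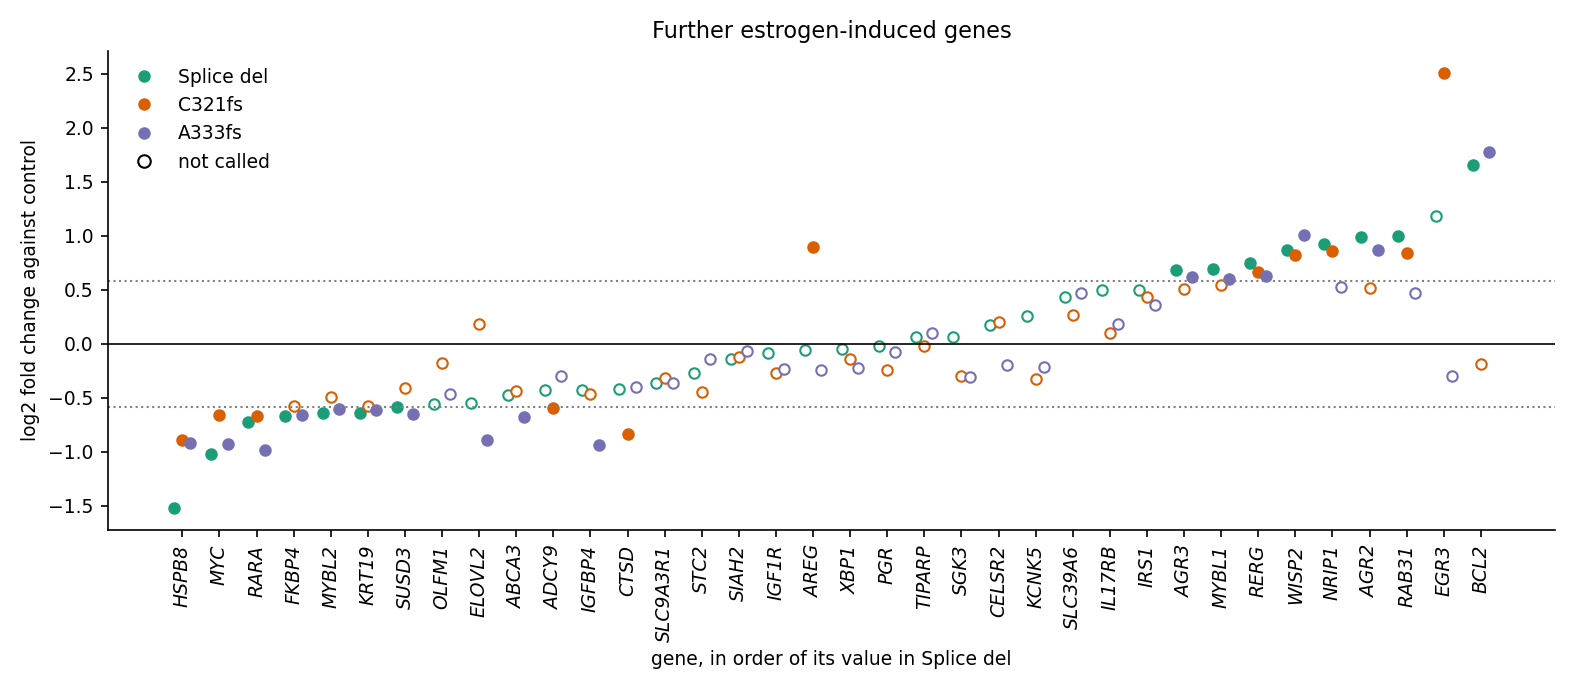
Log2 fold change against control (vertical axis) of the 36 further estrogen-induced genes, in order of their value in Splice del (horizontal axis), for Splice del, C321fs and A333fs. Filled points were called and dotted lines mark a fold change of 1.5; the points spread from -1.52 for HSPB8 with Splice del to 2.51 for EGR3 with C321fs, where EGR3 had a mean of 1.55 CPM.

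Of 3 genes that estrogen represses, ERBB2, BIK and CCNG2, 2 were called higher in Splice del, 0 with C321fs and 1 with A333fs, and none was called lower. The shares of all tested genes called higher were 6.21%, 4.63% and 5.46%. CCNG2, an inhibitor of the cell cycle, was higher at 0.68 (adjusted p = 1.4e-06) and 0.64 (adjusted p = 1.88e-06) with Splice del and A333fs and stood at 0.33 with C321fs. It was called in no line with the GC and length trend removed.

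Marker genes of the sample also moved. Of the 10 luminal markers, 0 were called higher, and 3, 3 and 2 were called lower in Splice del, C321fs and A333fs. The shares of all tested genes called lower were 4.53%, 2.26% and 6.81%. KRT8 and KRT18 were lower in Splice del and C321fs, at -1.02 and -0.84 for KRT8 and -0.82 and -0.65 for KRT18, and MUC1 was lower in C321fs and A333fs, at -0.95 and -0.71. Not all luminal markers went down: 3, 1 and 3 of the 10 had values above 0 in Splice del, C321fs and A333fs. Among them was EPCAM in every line, at 0.42, 0.37 and 0.37, under the fold limit. After removal of the GC and length trend, the luminal markers called lower were 2, 2 and 0, and KRT18 in C321fs, at -0.46, and MUC1 in A333fs, at -0.42, were not among them. Of the 4 tested basal genes, 0, 1 and 2 were called higher, namely TP63 in C321fs and KRT14 and ACTA2 in A333fs, named after their values were seen. The shares of all tested genes called higher were 6.21%, 4.63% and 5.46%. KRT14 had a mean of 0.569 CPM in A333fs. TP63 had an adjusted p of 0.00827 and lost its call after removal of the GC and length trend (adjusted p = 0.0204), with DESeq2 (adjusted p = 0.0163) or with the replicate block (adjusted p = 0.0133). COL3A1, a fibroblast marker that these cells expressed at 5.13 CPM in control, was lower in all 3 lines at -1.09, -1.03 and -1.65, and COL1A1 in A333fs, at -0.83, which was -0.45 and no call with the GC and length trend removed. The monocyte marker CD14 was higher in Splice del and A333fs at 1.87 and 0.93, from 0.682 CPM in control. Their part in the levels of the members was not tested.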

How the data were processed

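RNA was sequenced from control T47D cells and from the A333fs, C321fs and Splice del lines, with 3 libraries per line. The ChIP-seq samples were not analysed here. The deposited values are whole-number counts of fragments per gene, not normalized, which the authors made with featureCounts 1.6.4 on hg38, ignoring strand and leaving out fragments that mapped to several places or touched several genes. The submitters' notes name HISAT2 as the aligner, while a folder name in the file header points to STAR, so the aligner is uncertain. The labels and the methods name different growth media. The columns of the count file were matched to samples by title.

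After filterByExpr, grouped by line, 14789 of 26485 genes remained, and libraries were scaled by TMM. The quasi-likelihood functions glmQLFit and glmQLFTest of edgeR 4.0.16 (R 4.3.3) were run on the 12 libraries together, without covariates. A call required a fitted fold above 1.5 and p under 0.01 after Benjamini-Hochberg adjustment, the limits in the study's text. CPM used TMM-scaled library sizes, and log2 CPM a prior count of 2. The counting depth gave TFF1, the member with the lowest counts, 52 to 185 fragments per library. The procedure was tested on simulated data before use.

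The members and lists were chosen with earlier results of these data known. Named were every member, of each other list the genes called in at least 2 comparisons with control (at most 12, by smallest adjusted p, and 1 of these is not reported here), ESR1, PGR, FOXA1 and GATA3, and the 2 genes most like each called member by root mean square difference of centred log2 CPM over 12 libraries. Alternatives were other scalings, filters and limits, DESeq2 1.42.0, a fit on the 2 lines compared, a replicate block, removal of a GC and length trend fitted per library (loess, span 0.3, without the members), and leaving out each library. Replicate numbers did not pair the libraries: residuals of libraries with the same number correlated at -0.00918 on average over 18 pairs (range -0.123 to 0.165). No 2 libraries of a line agreed within counting noise. Member coordinates come from the count file, and promoter windows from RefSeq.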

Additional observations from a re-analysis of the deposited data

Results flagged for a closer look

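The members listed here were called between 2 mutant lines, by a direct test of one cell pool against another (edgeR's quasi-likelihood test). TFF1 was higher in Splice del than in C321fs by 0.9111 on the log2 scale (adjusted p = 8.07e-04) and higher in A333fs than in C321fs by 1.285 (adjusted p = 1.1e-05). TFF3 was higher in Splice del than in C321fs by 1.636 (adjusted p = 1.74e-08), higher in A333fs than in C321fs by 0.8857 (adjusted p = 9.08e-06), and lower in A333fs than in Splice del, at -0.7505 (adjusted p = 8.76e-05). PRSS23 was higher in Splice del than in C321fs by 0.6363 (adjusted p = 1.2e-06). RET was lower in A333fs than in C321fs, at -0.6114 (adjusted p = 3.63e-05), and lower in A333fs than in Splice del, at -0.9685 (adjusted p = 6.31e-07). In each case all 3 libraries of one line lay on one side of all 3 libraries of the other. The members were picked by their calls on the same libraries, so this placement adds no independent support. The causes of these differences were not tested.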

How the results depend on the processing

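Counts of members called in a comparison kept within 1.5 times their main value under most alternatives, and leaving out 1 library at a time changed none of these counts by more. With no minimum fold change the counts were 6 in Splice del, 4 in C321fs, 6 for Splice del against C321fs, 9 for A333fs against C321fs and 5 for A333fs against Splice del, where 41.1%, 36.8%, 6.32%, 15.7% and 11.9% of all tested genes passed. A test against a fold change of 1.5 left 1 in A333fs (2.39% of all tested genes) and 1 in each comparison between mutant lines (0.784%, 1.62% and 0.433%). Scaling by library size gave 2 in C321fs, where 1518 of all tested genes were called higher and 110 lower, against 684 and 334 in the main fit. Removal of the GC and length trend left 3 in A333fs, since RET (-0.48) and CXCL12 (0.51) fell under the fold limit. Of all tested genes, 581 were then called higher and 222 lower in A333fs, against 808 and 1007 in the main fit. RET in A333fs was also not called with upper-quartile scaling (-0.49), library size (-0.46) or no filter (-0.58).

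Of 456 values of single members outside the settings that leave out a library, 416 kept their direction and call, 17 lost a call, 10 gained one and 13 changed sign; with 1 library left out the numbers were 443, 5, 0 and 8 of 456. No called value changed sign. The sign changes in Splice del were CCND1 at 0.00344 (upper quartile) and 0.0999 (library size), PDZK1 at -0.0528 (trend removed) and CA12 at -0.00625 (RLE) and -0.00905 (DESeq2). In C321fs they were PDZK1 at 0.0168 and CA12 at 0.0327 (library size), GREB1 at 0.0615 (upper quartile), 0.142 (library size) and 0.159 (trend removed), and RET at -0.00738 (RLE) and -0.0108 (DESeq2). In A333fs PDZK1 was at -0.0468 with the trend removed. Leaving out 1 library moved GREB1 between -0.0167 and 0.0947 and CA12 between -0.0261 and 0.0293 in Splice del, and GREB1 between -0.0854 and 0.0260 and RET between -0.00448 and 0.0205 in C321fs. The cause of each was not tested.

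Upper-quartile and library-size scaling moved the median of all genes to 0.122, 0.106 and 0.12, and to 0.219, 0.187 and 0.155, in Splice del, C321fs and A333fs. The share of calls that were higher was 57.8%, 67.2% and 44.5% with TMM, 79.1%, 86.3% and 73.7% with the upper quartile, 92.2%, 93.2% and 80.2% with library size, and 76.3%, 77% and 72.4% with the trend removed. The fit with a replicate block called 3, 1 and 5 members against control and 3, 3 and 2 between mutant lines, as without it, and 8 members differed among the lines in both. It ended the call of TP63 in C321fs. TFF1, at 52 to 185 counts, had the widest intervals of the group.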

Other observations

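Genes outside the group whose centred log2 CPM over the 12 libraries lay nearest to a called member are given as a description. Nearest to TFF1 were CITED2, a transcriptional coregulator, and PADI2, a peptidylarginine deiminase, each with a root mean square difference of 0.181, where TFF1 itself varied by 0.537. Their log2 fold changes in Splice del, C321fs and A333fs were 0.67, -0.36 and 1.26 for CITED2 and 0.76, -0.29 and 0.99 for PADI2, the same signs as TFF1 in each line. Nearest to TFF3 were KIF12 (0.176) and CEACAM6 (0.213), with 1.51, -0.01 and 0.78, and 1.56, -0.23 and 0.83.

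Nearest to PRSS23 were LINC01016 (0.21), with log2 fold changes of 2.47, 1.32 and 2.08, and RTN1 (0.211), a reticulon of the endoplasmic reticulum, with 3.29, 2.18 and 2.83. Nearest to CXCL12 were RNF217 (0.0454), with 0.47, 0.28 and 0.62, and DPY19L1 (0.0564), with 0.50, 0.40 and 0.72. Nearest to RET were OLMALINC (0.0921), with 0.23, 0.07 and -0.52, and TNS4 (0.114), a tensin, with 0.46, 0.17 and -0.34. These genes were picked for their likeness on the same libraries, so their values add no independent support.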
